A study of Mus musculus with 100 samples.

Results

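The Snrpn cluster of mouse chromosome 7 was followed through 6 of its protein-coding genes, Snrpn, Ndn, Magel2, Mkrn3, Peg12 and Ube3a, taken by name as the known genes of the cluster. They are 6 of the 25965 genes measured. RNA-seq was read from 18 libraries in 6 groups of 3 biological replicates, and reads that crossed a strain difference were split into maternal and paternal alleles. The fibroblasts and the induced pluripotent stem cells (iPSCs) came from F1 crosses between an i4F-BL6 mother, which carries a doxycycline-inducible cassette of the reprogramming factors Oct4, Sox2, Klf4 and c-Myc on a BL6 background, and a CAST father, so the BL6 allele was the maternal one and the CAST allele the paternal one. The groups were female mouse embryonic fibroblasts (MEFs) taken at E13.5, 2 female iPSC lines (F KSR2, F KSR4), 2 male iPSC lines (M KSR3, M KSR5) and TX 2i ESCs, and 5 values given in a row stand for the last 5 of these groups in this order. The 4 iPSC lines were made with doxycycline and grown with LIF in medium with Knockout Serum Replacement (KSR). TX 2i ESCs are the female BL6 by CAST embryonic stem cell line TX1072. They were grown in medium with foetal bovine serum and LIF, to which the 2i inhibitors of MEK and GSK3 were added. Contrasts of the KSR lines with TX 2i ESCs therefore also set KSR against serum. Each KSR line was grown from a picked colony and is 1 clone, all lines of a sex go back to 1 batch of embryonic cells, and male MEFs were not among these libraries. There was no reverse cross, so the parental origin and the strain of an allele cannot be told apart. The labels call the replicates biological without saying that they came from separate animals or derivations, so p-values measure the spread between these samples only. Bisulfite amplicon samples of the same series were not analysed here.

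This cluster is the mouse counterpart of the human region lost in the Prader-Willi and Angelman syndromes. Its imprinting centre lies at the start of Snrpn, where DNA of the maternal chromosome carries methylation inherited from the egg, and the centre keeps Snrpn, Ndn, Magel2, Mkrn3 and Peg12 expressed from the paternal chromosome only. Snrpn encodes SmN, a core protein of the spliceosome, and its transcript also carries the short reading frame of Snurf. Ndn (necdin) and Magel2 are MAGE family genes that act in neurons and the hypothalamus, Mkrn3 encodes a RING finger ubiquitin ligase that restrains the onset of puberty, and Peg12 (Frat3) is a retrogene related to the GSK3-binding FRAT proteins. Ube3a, the ubiquitin ligase of Angelman syndrome, is maternally expressed in neurons and comes from both alleles in most other cells. Loss of methylation at such a centre frees the maternal copy. The share of maternal reads is a ratio, so it moves with the level of the paternal copy as well as that of the maternal copy.

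Start regions of 4 of the genes are shown, since Snrpn and the genes far from it behaved differently in the male lines. The windows come from RefSeq (GRCm38.p6), which held an entry for each of the 6 genes and 9 windows in all. Each runs 5′ to 3′ from 250 bases before to 50 bases after an annotated start. Capitals mark 2 motifs searched on both strands and chosen after the sequences were seen, the NRF1 core and the ZFP57 hexamer. The NRF1 core is GCATGCG. On the other strand it is written with the letters CGCATGC, and matches on both strands that overlap each other in these windows form CGCATGCG. The letters of the ZFP57 hexamer are TGCCGC. Its other strand is spelled with the letters GCGGCA. The main Snrpn start lies at chr7:60005150-60005449 and an upstream start at chr7:60140176-60140475, both on the minus strand. Ndn lies at chr7:62348027-62348326 on the plus strand, Mkrn3 at chr7:62420104-62420403 and Peg12 at chr7:62464461-62464760 on the minus strand.
Snrpn, main start: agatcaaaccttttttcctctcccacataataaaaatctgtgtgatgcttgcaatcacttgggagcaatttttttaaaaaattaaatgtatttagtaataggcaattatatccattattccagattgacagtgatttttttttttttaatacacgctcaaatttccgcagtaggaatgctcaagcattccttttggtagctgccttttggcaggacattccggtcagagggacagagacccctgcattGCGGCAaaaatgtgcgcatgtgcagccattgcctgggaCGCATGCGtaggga
Snrpn, upstream start: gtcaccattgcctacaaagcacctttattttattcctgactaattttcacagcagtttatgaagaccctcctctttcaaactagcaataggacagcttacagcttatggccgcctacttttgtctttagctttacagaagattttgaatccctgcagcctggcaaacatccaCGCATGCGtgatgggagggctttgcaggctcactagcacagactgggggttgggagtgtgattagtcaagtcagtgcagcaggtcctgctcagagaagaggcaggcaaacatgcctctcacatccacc
Ndn: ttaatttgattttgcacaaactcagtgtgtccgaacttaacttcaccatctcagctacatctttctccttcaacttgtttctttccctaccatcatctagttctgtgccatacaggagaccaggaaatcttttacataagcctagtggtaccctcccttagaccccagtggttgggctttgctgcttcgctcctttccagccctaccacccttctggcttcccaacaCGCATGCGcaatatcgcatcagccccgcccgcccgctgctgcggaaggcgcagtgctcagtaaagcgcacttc
Mkrn3: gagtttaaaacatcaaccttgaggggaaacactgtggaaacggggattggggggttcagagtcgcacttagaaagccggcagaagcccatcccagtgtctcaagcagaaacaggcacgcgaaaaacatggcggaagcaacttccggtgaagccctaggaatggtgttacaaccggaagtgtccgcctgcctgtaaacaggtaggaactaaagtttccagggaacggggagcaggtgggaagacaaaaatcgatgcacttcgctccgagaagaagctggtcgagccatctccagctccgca
Peg12: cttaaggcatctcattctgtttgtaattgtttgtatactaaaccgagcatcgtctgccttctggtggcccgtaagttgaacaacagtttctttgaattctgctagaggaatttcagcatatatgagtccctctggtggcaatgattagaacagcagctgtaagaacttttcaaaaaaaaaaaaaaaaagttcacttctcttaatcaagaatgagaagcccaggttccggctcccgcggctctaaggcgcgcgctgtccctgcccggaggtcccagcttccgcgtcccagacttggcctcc
The NRF1 core stood in all 4 Snrpn windows and in Ndn, each time on both strands, and in none of the windows of Magel2, Mkrn3, Peg12 and Ube3a. CGCATGCG reads the same on both strands, so the matches on the 2 strands are the same site. The upstream Snrpn windows share long stretches of sequence, so their matches are not separate occurrences. At least 1 such core was present in 3.57% of all 32817 promoter windows and at least 2 in 1.94%. The ZFP57 hexamer, the letters read by a zinc finger protein that protects imprints, was found only at the main Snrpn start, at bases 249 to 254 of the window, and in 11.6% of all windows. Ube3a had 29 CpG dinucleotides in its window, Mkrn3 15, Peg12 12, Ndn 11, Magel2 10 and the main Snrpn start 7, against a median of 7 over all windows. A match is a run of letters and no evidence of binding.

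The libraries held 13183036 to 17921280 reads on genes, of which 17.7 to 19.9% could be given to an allele. Genes of chromosome 7 outside the cluster were 50.9 to 54.2% maternal in every library, which is the background for the shares that follow. The summed level of 10 fibroblast markers was 22444 to 34443 RPM (reads scaled to library size) in MEFs and 12.6 to 163 RPM in the other 15 libraries, and that of 9 pluripotency markers was 1.40 to 2.29 RPM against 3791 to 7970 RPM. M KSR5 replicate 3 stood apart from the other male libraries in the allelic reads of Snrpn and the reads of Magel2, and it had the highest fibroblast sum of the pluripotent libraries, at 0.604% of the MEF mean against 0.0466 to 0.276% in the other 14. Values of Snrpn, Magel2 and the share differences that rest on it are also given without it. M KSR3 had the highest summed level of 5 primitive endoderm markers, 83.6 to 110 RPM against 3.59 to 43.7 RPM in every other library, mostly Gata4 and Gata6, while Afp had 0 or 1 read.

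Snrpn, at chr7:59982495-60140219 of GRCm38, the build of all positions here, rose in all 5 pluripotent groups. In bulk samples, fewer cells that express a gene and less RNA per cell cannot be told apart. On the log2 RPM scale it measured 4.91, 4.50 and 4.45 in the 3 MEF libraries (mean 4.62 ± 0.26, SD). The F KSR2 libraries gave 7.36, 7.88 and 8.18 (7.81 ± 0.41), and the F KSR4 libraries 7.77, 6.94 and 7.81 (7.51 ± 0.49). Every female library was more than 2 log2 units above the highest MEF library. M KSR3 gave 6.23, 6.43 and 6.31 (6.32 ± 0.10), M KSR5 gave 7.19, 7.36 and 7.59 (7.38 ± 0.20), and TX 2i ESCs gave 7.38, 7.18 and 7.63 (7.40 ± 0.23). M KSR3 was the lowest of the pluripotent groups and overlapped none of them, yet all of its libraries were above all MEF libraries. In RPM the MEF mean was 24.8, against 230.4, 188, 80.3, 168 and 170.2 in the pluripotent groups.

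In limma on all genes, with Benjamini-Hochberg adjustment, the log2 differences of Snrpn from MEFs were 3.19 (adjusted p = 3.05e-09), 2.89 (1.2e-08), 1.71 (6.26e-06), 2.76 (1.96e-08) and 2.78 (1.64e-08), each with an SE of 0.24. Fibroblasts and pluripotent cells differ widely, and 67, 65.8, 67.6, 67.9 and 66.5% of the 14632 genes tested were called (38, 34.6, 39.4, 39 and 37.5% higher and 29, 31.2, 28.2, 28.9 and 29% lower), so a call against MEFs is the common outcome. The median gene differed by 0.24, 0.08, 0.30, 0.25 and 0.20. Of the 30 pairs of a member and a pluripotent group 21 were called, and 18 of 25 without Magel2, whose reads were too few to support a call. Snrpn in the mean of the KSR lines was 0.14 below TX 2i ESCs (95% interval of the log2 difference −0.54 to 0.25, adjusted p = 0.64), in a contrast that called 23% of genes. Between the male lines, M KSR3 was lower than M KSR5 by a log2 difference of −1.06 (SE 0.24, adjusted p = 0.0175, 4.48% of genes called), and that call was lost (adjusted p from 0.0566 to 0.0718) when any 1 of the M KSR3 libraries, M KSR5 replicate 2 or M KSR5 replicate 3 was left out. The primitive endoderm markers given above were highest in M KSR3, and their part in this difference was not tested. The female lines did not pass the test between themselves (0.30, adjusted p = 0.547, 1.14% called). Female against male lines gave 0.81 (interval 0.25 to 1.36, adjusted p = 0.106, 2.87% of 13609 genes called), which was called without F KSR4 replicate 2 (0.0496) or without M KSR5 replicate 3 (0.0485). Snurf lies inside Snrpn at chr7:59995449-60005049 on the same strand and shares its reads, so its log2 differences from MEFs of 3.24, 2.60, 1.76, 2.77 and 2.84 are no separate evidence.

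**Figure D1:**
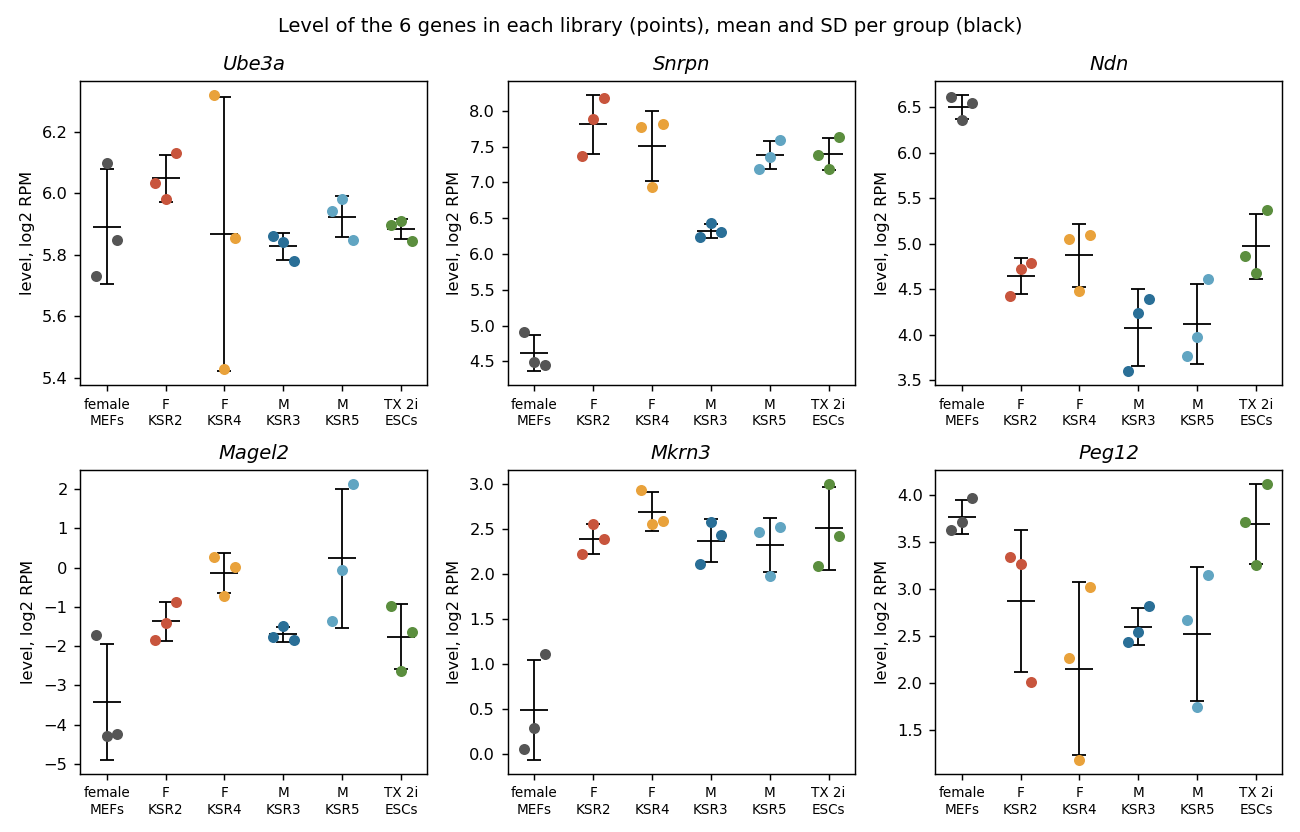
Level of the 6 cluster genes in each of the 18 libraries, on the log2 RPM axis, with points for libraries and black bars for the mean and SD of each group of 3. Snrpn lies at 4.45 to 4.91 in MEFs and at 6.23 to 8.18 in the pluripotent libraries, Ndn goes the other way, and Ube3a stays between 5.43 and 6.32 throughout.

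The alleles of Snrpn separated the lines. MEFs had no maternal read among 45, 44 and 47 allelic reads, and 0 reads allow shares of up to 6.67, 6.82 and 6.38%. F KSR2 had 105 maternal of 260 allelic reads, 165 of 421 and 223 of 458, or 40.4, 39.2 and 48.7% (mean 42.8% ± 5.17, SD). F KSR4 had 66 of 366, 42 of 195 and 58 of 388, or 18.03, 21.5 and 14.9% (18.2% ± 3.30). Both female lines thus read the maternal allele in every library, and the lowest F KSR2 library lay above the highest F KSR4 library. M KSR3 had 8 of 120, 7 of 147 and 4 of 115 maternal reads, or 6.67, 4.76 and 3.48% (4.97% ± 1.60). M KSR5 had 13 of 230, 12 of 275 and 69 of 312, or 5.65, 4.36 and 22.1% (10.7% ± 9.90, and 5.01% ± 0.911 over the first 2 libraries). TX 2i ESCs had 125 of 260, 146 of 280 and 152 of 286, or 48.1, 52.1 and 53.1% (51.1% ± 2.68). Snrpn therefore stayed largely paternal in 5 of the 6 male libraries, at or below 6.67% maternal, while M KSR5 replicate 3, at 22.1%, was just above the highest F KSR4 library. That library also had the highest fibroblast marker sum of the pluripotent libraries, whose part in its Snrpn share was not tested.

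The paternal allele itself was also read more. Its level was 2.24 to 2.75 allelic RPM in MEFs (mean 2.49 ± 0.253), 6.17 to 7.18 in M KSR3 (6.62 ± 0.515), 12.0 to 14.7 in M KSR5 (13.6 ± 1.43), 8.46 to 22.3 in F KSR4 (15.8 ± 6.95), 8.68 to 14.3 in F KSR2 (12.2 ± 3.09) and 7.17 to 8.52 in TX 2i ESCs (7.75 ± 0.697). Every pluripotent library was above every MEF library on the paternal allele alone. The maternal allele ranged from 0.222 to 0.465 allelic RPM in M KSR3, 0.673 to 3.99 in M KSR5 (0.673 to 0.718 without replicate 3), 2.32 to 3.92 in F KSR4, 5.88 to 13.6 in F KSR2 and 7.01 to 9.67 in TX 2i ESCs. M KSR3 thus had the lowest mean of the pluripotent groups on both alleles, although its paternal range touched that of TX 2i ESCs.

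The log2 ratio of maternal to paternal reads was tested with limma over 10140 genes. Against MEFs it rose by 6.10 (adjusted p = 7.3e-09), 4.34 (4.65e-06), 2.32 (0.000661), 3.11 (4.88e-05) and 6.58 (1.04e-08), with an SE of 0.44. MEFs had no maternal read, so these sizes depend on the 0.5 read added to each allele and are no bounds. The M KSR3 call rests on 4 to 8 maternal reads a library and was lost with the deposited per-allele values, at a log2 ratio of 1.08 (adjusted p = 0.0962). These contrasts called 16.3, 11.7, 21.4, 11.7 and 18.1% of genes. The mean of the KSR lines was below TX 2i ESCs by a log2 ratio of −2.61 (SE 0.35, adjusted p = 1.82e-05, 20.1% of genes called). Line by line, F KSR4 (−2.24, adjusted p = 0.00237, 10.2% called), M KSR3 (−4.26, 6.57e-07, 22.1% called) and M KSR5 (−3.47, 1.16e-05, 14.3% called) were below TX 2i ESCs, while F KSR2 did not pass the test (−0.49, interval −1.42 to 0.45, adjusted p = 0.634, 15.1% called). Without M KSR5 replicate 3 the log2 ratio of M KSR5 was 2.31 above MEFs (adjusted p = 4.19e-06) and differed from TX 2i ESCs by −4.27 (1.31e-09).

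Among the KSR lines, F KSR2 had a higher Snrpn ratio than F KSR4 by 1.75 (SE 0.44, adjusted p = 0.0129, 9.55% of genes called), which was lost without F KSR2 replicate 3 (0.0543) or F KSR4 replicate 3 (0.0604). The ratio of M KSR3 to M KSR5 differed by −0.79 (interval −1.73 to 0.15, adjusted p = 0.394, 11.5% called). Female against male lines differed by 2.50 (SE 0.53, adjusted p = 0.0129, 3.63% of 9627 genes called), and by 2.90 (0.00074) without M KSR5 replicate 3. The 12 libraries come from 4 clones, and with the line as a random effect the difference was 2.50 (adjusted p = 0.0327). With 2 lines and 1 embryo or embryo batch a sex, sex and the source of the lines cannot be told apart.

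**Figure D2:**
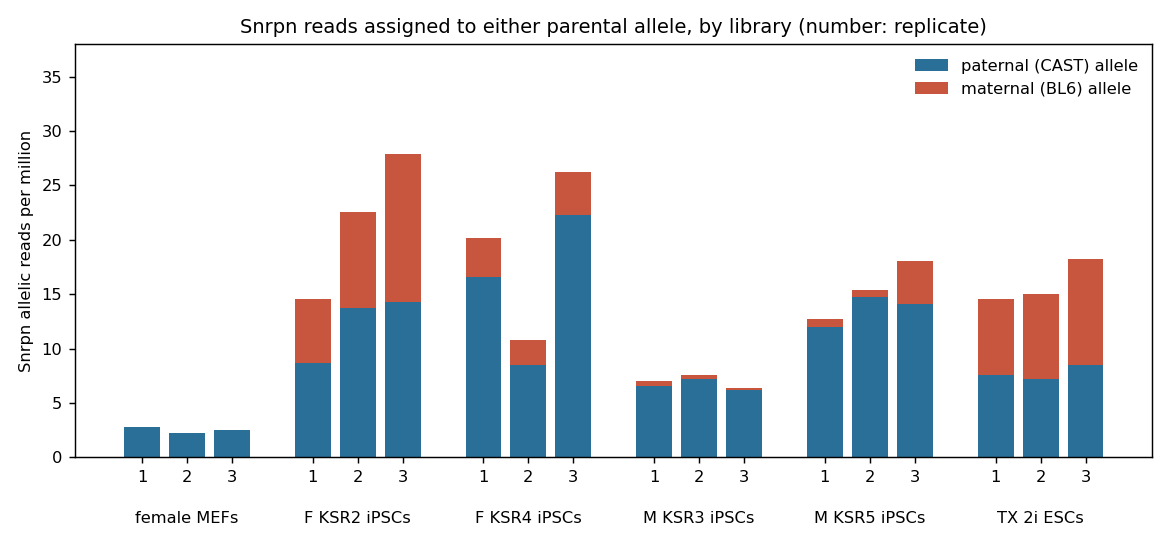
Maternal and paternal Snrpn reads of each library in allelic RPM, drawn as stacked bars from 0 for the 18 libraries. The paternal parts of the pluripotent libraries (6.17 to 22.3) all exceed those of MEFs (2.24 to 2.75), and the maternal parts run from 0 in MEFs to 13.6 in F KSR2.

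Ndn, at chr7:62348277-62349928, fell in all 5 pluripotent groups and was read from the maternal allele in each of them. Its log2 RPM was 6.61, 6.36 and 6.55 in MEFs (6.51 ± 0.13), 4.42, 4.72 and 4.79 in F KSR2 (4.64 ± 0.19) and 5.05, 4.47 and 5.10 in F KSR4 (4.87 ± 0.35). M KSR3 gave 3.60, 4.24 and 4.40 (4.08 ± 0.42), M KSR5 3.76, 3.97 and 4.61 (4.12 ± 0.44) and TX 2i ESCs 4.86, 4.68 and 5.37 (4.97 ± 0.36). All MEF libraries lay above all others, the pluripotent groups were at 19.0 to 35.2% of the MEF mean RPM, and both male lines lay wholly below TX 2i ESCs. The log2 differences from MEFs in limma were −1.86 (adjusted p = 8.89e-06), −1.63 (3.95e-05), −2.43 (3.83e-07), −2.39 (4.98e-07) and −1.54 (6.86e-05). The KSR lines against TX 2i ESCs gave −0.54 (adjusted p = 0.0716), which was called with a replicate block (0.0341) or without M KSR5 replicate 3 (0.0349).

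Few Ndn reads could be given to an allele, but they divided clearly. MEFs had 0 maternal of 35, 50 and 36 allelic reads. F KSR2 had 12 of 17, 5 of 8 and 12 of 15 maternal reads, and F KSR4 12 of 21, 14 of 22 and 7 of 13. M KSR3 had 1 of 4, 7 of 8 and 6 of 7, M KSR5 4 of 5, 4 of 4 and 6 of 10, and TX 2i ESCs 10 of 12, 7 of 11 and 7 of 14. Every pluripotent library held maternal Ndn reads and no MEF library did. Pooled over the libraries of a group, the maternal share was 72.5% (29 of 40), 58.9% (33 of 56), 73.7% (14 of 19, Wilson 95% interval 51.2 to 88.2%), 73.7% (14 of 19) and 64.9% (24 of 37). The paternal Ndn allele measured 1.89 to 2.55 allelic RPM in MEFs and 0 to 0.496 in the pluripotent libraries, while the maternal allele had no read in MEFs and 0.0582 to 0.774 allelic RPM in the pluripotent libraries. With no maternal Ndn read in MEFs, sizes of its ratio against them depend on the 0.5 read added to each allele and are no bounds. Ndn had too few allelic reads for the main allelic fit. Among genes with a mean of at least 5 allelic reads in each group compared, a rule chosen after the data were seen, its log2 ratio rose by 7.56, 6.79, 7.40, 8.09 and 7.27 against MEFs (SE 0.87, limma adjusted p = 2.78e-06, 7.83e-05, 3.44e-06, 1.48e-06 and 1.36e-05), where 15.4, 10.3, 19.9, 10.4 and 16.6% of genes were called.

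Peg12, the member farthest from Snrpn, at chr7:62461871-62464510, fell in 3 of the 4 KSR lines. Its log2 RPM was 3.62, 3.71 and 3.97 in MEFs (3.77 ± 0.18), 3.34, 3.27 and 2.01 in F KSR2 (2.87 ± 0.75) and 2.26, 1.18 and 3.02 in F KSR4 (2.15 ± 0.92). M KSR3 gave 2.44, 2.55 and 2.82 (2.60 ± 0.20), M KSR5 2.67, 1.75 and 3.15 (2.52 ± 0.71) and TX 2i ESCs 3.71, 3.26 and 4.11 (3.70 ± 0.43). All KSR libraries were below all MEF libraries, but the spread within F KSR2, F KSR4 and M KSR5 exceeded 1 log2 unit. Against MEFs, limma gave −1.62 in F KSR4 (adjusted p = 0.00546), −1.17 in M KSR3 (0.0332) and −1.25 in M KSR5 (0.0241). The M KSR3 call was lost without MEF replicate 2 (0.0549) or 3 (0.0831), without M KSR3 replicate 1 (0.0845) or 2 (0.0742) and without the filter on low values (0.054), and the M KSR5 call without MEF replicate 3 (0.0639) or M KSR5 replicate 2 (0.135). F KSR2 (−0.90, adjusted p = 0.095) and TX 2i ESCs (−0.07, 0.896) did not pass. The KSR lines were below TX 2i ESCs by −1.16 (SE 0.37, adjusted p = 0.0296), a call lost without TX 2i ESC replicate 1 (0.0986) or replicate 3 (0.167) and without the filter on low values (0.0518).

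Peg12 also went from the paternal allele to both. MEFs had 0 maternal of 40, 40 and 52 allelic reads. F KSR2 had 14 of 30, 16 of 33 and 2 of 6, F KSR4 7 of 13, 1 of 4 and 12 of 16, and M KSR3 11 of 15, 6 of 23 and 12 of 23. M KSR5 had 7 of 16, 3 of 11 and 15 of 24, and TX 2i ESCs 18 of 39, 9 of 29 and 24 of 48. Maternal Peg12 reads were seen in all 15 pluripotent libraries and in no MEF library, and the shares of the 5 pluripotent groups overlapped. The pooled shares were 46.4, 60.6, 47.5, 49.0 and 44.0%. The log2 ratio rose against MEFs by 6.09 (limma adjusted p = 3.32e-06), 6.62 (9.65e-06), 6.48 (1.48e-06), 6.16 (3.88e-06) and 6.02 (1.1e-05), with an SE of 0.72, and no contrast among the pluripotent groups was called. The paternal Peg12 allele measured 2.04 to 2.73 allelic RPM in MEFs and 0.166 to 1.53 in the pluripotent libraries.

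Mkrn3, at chr7:62417593-62420139, rose in each of the 5 pluripotent groups. Its reads numbered 17, 24 and 41 in MEFs, 83, 110 and 86 in F KSR2 and 139, 106 and 89 in F KSR4. M KSR3 had 74, 116 and 97 reads, M KSR5 100, 70 and 99, and TX 2i ESCs 76, 150 and 84. No MEF library reached any pluripotent library. The log2 differences from MEFs were 1.90 (limma adjusted p = 0.000121), 2.21 (2.79e-05), 1.89 (0.000129), 1.83 (0.000172) and 2.02 (6.46e-05). MEFs had only 7 allelic reads of Mkrn3, all paternal, so no allelic test against them was made. The maternal reads were 6 of 10, 4 of 11 and 2 of 5 in F KSR2, 10 of 16, 4 of 8 and 2 of 5 in F KSR4, and 3 of 7, 5 of 11 and 5 of 7 in M KSR3. M KSR5 had 5 of 14, 3 of 8 and 3 of 6, and TX 2i ESCs 5 of 7, 8 of 14 and 2 of 6. The pooled shares, 46.2, 55.2, 52.0, 39.3 and 55.6%, showed both alleles in all 5 groups.

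Magel2, at chr7:62376979-62381640, was near the limit of detection. Its reads were 5, 1 and 1 in MEFs, 5, 7 and 9 in F KSR2, 22, 11 and 15 in F KSR4, 5, 7 and 5 in M KSR3, 7, 17 and 76 in M KSR5, and 9, 3 and 5 in TX 2i ESCs. Only F KSR4 and M KSR5 lay wholly above MEFs by more than 1 read, and M KSR5 replicate 3 held more Magel2 reads than any other library. The gene passed the filter on low values only through F KSR4 and M KSR5, so its calls there (log2 differences of 3.28, limma adjusted p = 0.00166, and 3.65, 0.000639) are no support for a change of the cluster. The M KSR5 mean was 0.23 ± 1.77 on the log2 RPM scale and −0.72 over its first 2 libraries. F KSR2 gave 2.05 (0.0316), a call lost under several other settings, and M KSR3 (1.72, 0.0662) and TX 2i ESCs (1.66, 0.0763) did not pass. Of 11 allelic reads in all, 3 in F KSR4 replicate 3 and 1 in M KSR3 replicate 2 were maternal and 7 in M KSR5 replicate 3 were paternal.

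**Figure D3:**
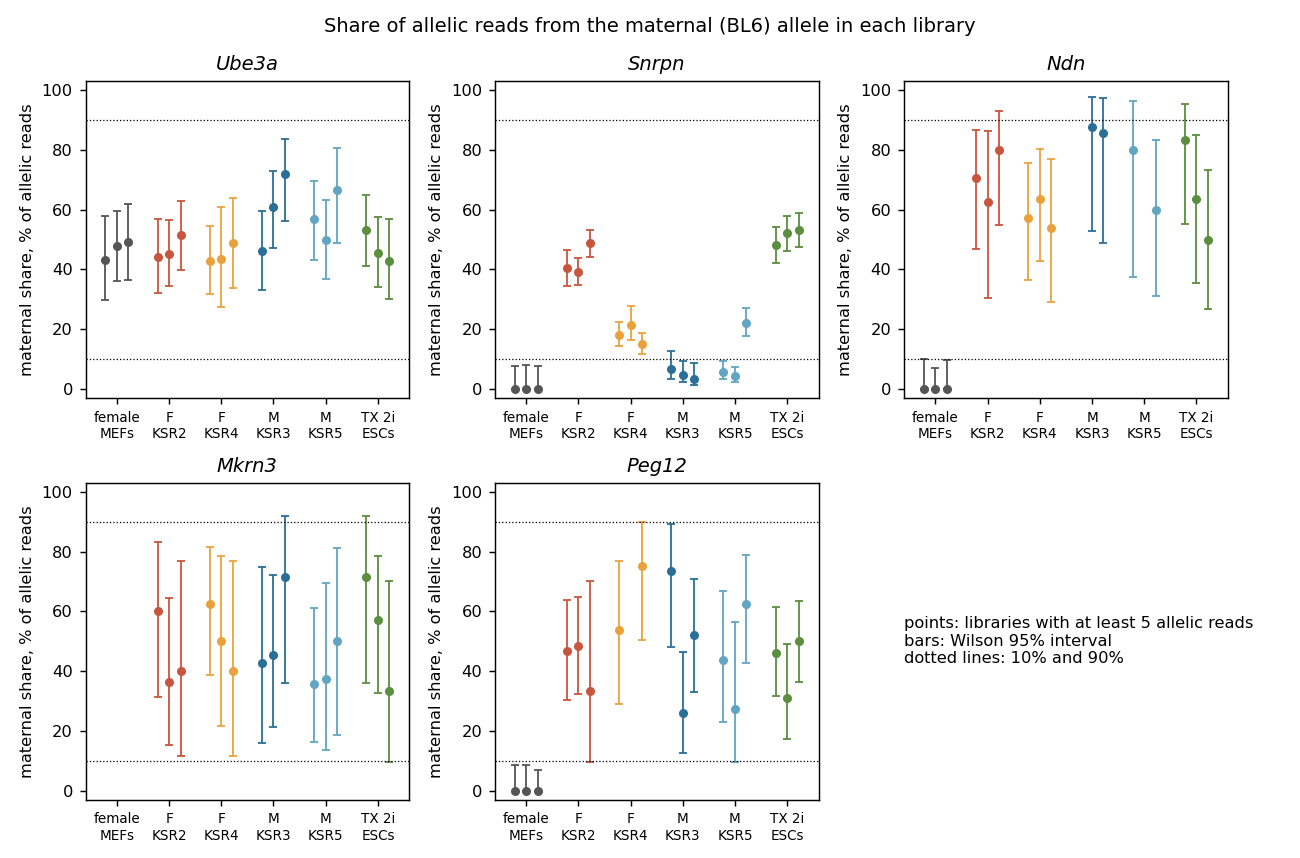
Maternal share of the allelic reads of the cluster genes in percent, with a point for each library with at least 5 allelic reads, its Wilson 95% interval and dotted lines at 10 and 90%. Snrpn lies at 0% in MEFs, at 3.48 to 6.67% in 5 male libraries and at 48.1 to 53.1% in TX 2i ESCs, whereas Ndn, Mkrn3 and Peg12 hold maternal reads in every pluripotent group.

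The male lines thus kept Snrpn mostly paternal while Ndn, Mkrn3 and Peg12 were read from both alleles. Over male libraries with at least 5 allelic reads the maternal share of Ndn was higher than that of Snrpn by a mean of 69.3 points (SD 21.3, 4 of 4 libraries), that of Peg12 by 39.7 points (SD 16.9, 6 of 6) and that of Mkrn3 by 39.3 points (SD 14.7, 6 of 6). Without M KSR5 replicate 3 these differences were 79.8, 39.5 and 41.6 points. In the female libraries they were 34.2 points for Ndn (6 of 6 libraries), 19.2 for Peg12 (4 of 5) and 17.7 for Mkrn3 (4 of 6). In the 3 TX 2i ESC libraries they were 14.5, −8.73 and 2.85 points, with 2, 0 and 2 libraries higher, so the genes did not differ in a common direction there. These differences were looked for after the shares had been seen and are given without a test, since the libraries of a line share a clone and the shares of the distal genes rest on 5 to 48 reads a library. Taking a mean share from 10 to 90% as reading of both alleles, 25 of the 30 pairs of a gene and a group that had a share were biallelic, as were 93.2% of such pairs over all genes. Snrpn in M KSR3 was not (4.97%), and Snrpn in M KSR5 was so only through replicate 3. In MEFs Ube3a was biallelic, and Snrpn, Ndn and Peg12 were not. The remaining pair, Magel2 in M KSR5, had 0 maternal of 7 reads, all in replicate 3.

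Ube3a, at chr7:59228752-59306727, did not pass the test in any level contrast, and both of its alleles were read in every group. Its log2 RPM was 5.73, 6.10 and 5.85 in MEFs, 6.03, 5.98 and 6.13 in F KSR2 and 6.32, 5.43 and 5.85 in F KSR4. M KSR3 gave 5.86, 5.84 and 5.78, M KSR5 5.94, 5.98 and 5.85, and TX 2i ESCs 5.90, 5.91 and 5.85. Every pluripotent group overlapped MEFs. Its maternal share was 46.7% ± 3.11 in MEFs and 46.9% ± 3.96, 45.0% ± 3.25, 59.5% ± 12.9, 57.8% ± 8.38 and 47.1% ± 5.34 in the others. The male lines had the highest means and the widest spreads, and no allelic contrast was called. Female against male lines gave a log2 ratio of −0.74 (interval −1.30 to −0.18, limma adjusted p = 0.22), and M KSR3 was called against MEFs (0.0396) and against TX 2i ESCs (0.0422) only without its replicate 1.

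Genes around the cluster had shares close to those of the chromosome as a whole. Over 82 other genes within 10 Mb of the cluster the maternal share was 50.3 to 54.4% in each library, and among the 36 of them with at least 15 allelic reads in every group the median was 52.2% in MEFs and 52.8 to 54.7% in the pluripotent groups. None of the 36 was under 10% in any group, and Svip, at 100% in MEFs only, was over 90%. Of 10 listed neighbours outside the paternal cluster 8 were tested for level. Herc2, a large ubiquitin ligase that binds UBE3A, was 47.9 to 55.5% maternal over the 6 groups, and Cyfip1, a regulator of actin and translation, was 48.8 to 53.8%. Against MEFs, Nipa1 and Atp10a were lower in level and Gabrg3 was higher in all 5 pluripotent groups.

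**Figure D4:**
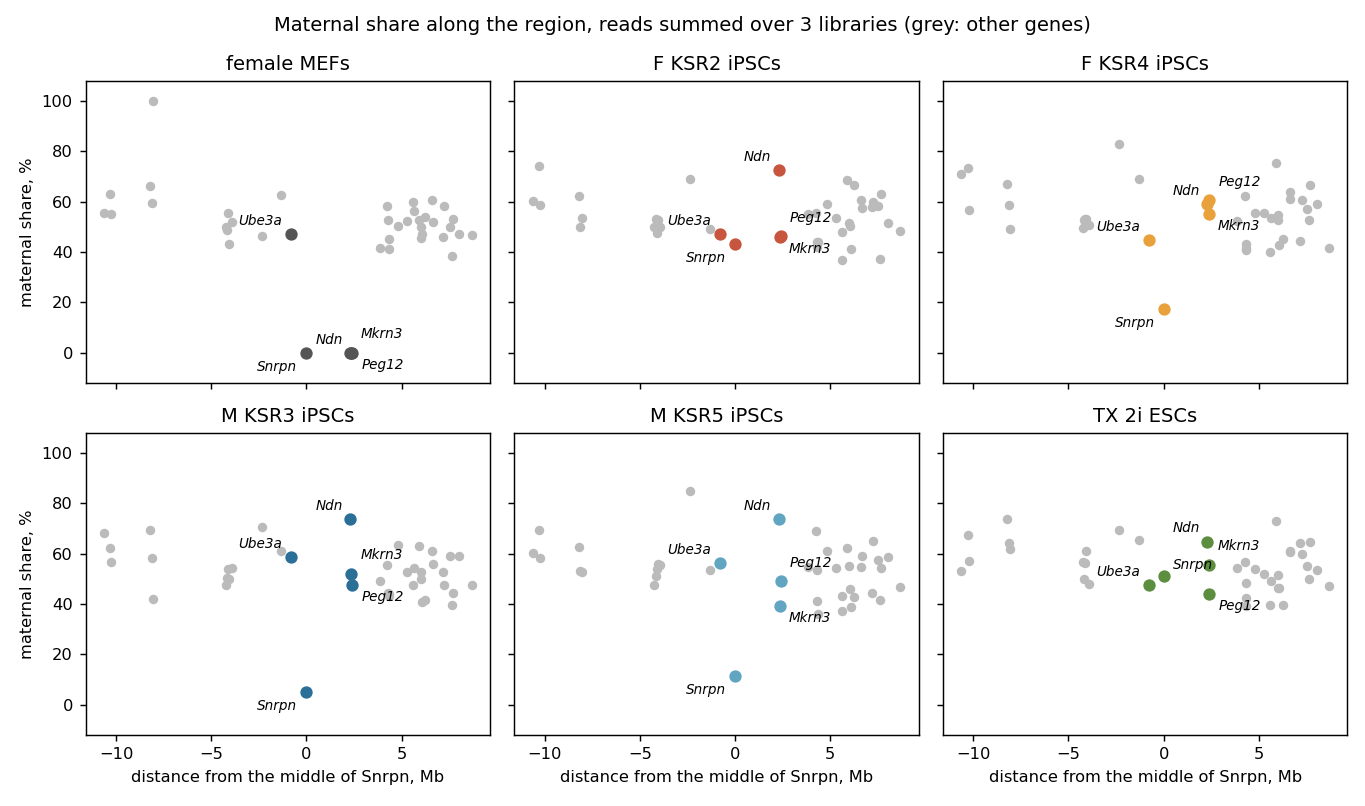
Maternal share in percent of genes around the cluster against their distance from the middle of Snrpn in Mb, with reads summed over the 3 libraries of a group (grey, other genes). Snrpn, Ndn, Mkrn3 and Peg12 leave 0% in the pluripotent groups, with Snrpn at 4.97% in M KSR3, while the other genes with at least 15 allelic reads have medians from 52.2 to 54.7%.

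Genes linked to the cluster by function differed between MEFs and the pluripotent groups. All 7 Sm core proteins, the partners of SmN in the spliceosome, were higher than in MEFs in 4 of the 5 pluripotent groups, and 6 of 7 in F KSR4, with median log2 differences of 0.97 to 1.26 against 0.08 to 0.30 for all genes, of which 34.6 to 39.4% were higher. Snrpb, whose protein SmN closely resembles, differed by 0.94, 0.95, 0.76, 1.03 and 0.90. Of 12 factors that silence the imprinting centre or keep imprints, 10, 7, 8, 9 and 6 were higher. Zfp57, which guards imprints in early embryos, rose by 2.91, 2.73, 3.66, 3.17 and 2.98, and Trim28, its co-repressor, by 2.33, 2.28, 2.35, 2.63 and 2.36. Setdb1, the H3K9 methyltransferase recruited by TRIM28, was higher in M KSR3 than in M KSR5 (0.70, limma adjusted p = 0.0186) and in the KSR lines than in TX 2i ESCs (0.37, 0.0408). Arid4a and Arid4b, needed for the maternal silence of this centre, were higher in the KSR lines than in TX 2i ESCs (0.56, adjusted p = 0.00597, and 0.58, 0.00417), while Ehmt2, another H3K9 methyltransferase, was lower (−0.47, 0.0188) and the other 8 factors were not called.

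The MAGE family, to which Ndn and Magel2 belong, mostly fell. Against MEFs 5 of 6 measured members, Ndn among them, were lower in every KSR line and 4 in TX 2i ESCs, against 28.2 to 31.2% of all genes. Magel2, with its few reads, was the only one called higher. Maged1, a broadly expressed member, differed by −1.51, −1.52, −2.36, −2.11 and −0.82, and it was higher in female than in male lines (0.72, limma adjusted p = 0.00858). That test takes libraries of the same clone as independent. The study reports both X chromosomes as active in its female KSR lines, and the part of X dosage in the Maged1 difference was not tested. The protein partners of MAGEL2 and UBE3A had 4, 3, 5, 4 and 5 of 7 higher and none lower, where 34.6 to 39.4% of all genes were higher, among them Usp7, a deubiquitinase, by 2.05, 1.62, 1.89, 2.16 and 2.45, and Trim27, the ligase that MAGEL2 binds, by 1.14, 0.78, 0.92, 1.35 and 1.21.

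Other paternally expressed genes, 11 in number and chosen by the study on these samples, are no independent evidence of a direction but show how Snrpn compares. All 11 had a higher allelic ratio than in MEFs in each of the 5 groups, where 11.1, 8.03, 17.2, 8.62 and 7.14% of all genes did, with medians of 6.26, 6.14, 7.26, 6.18 and 6.28, against 2.32 for Snrpn in M KSR3 and 3.11 in M KSR5. Of the 11, Sgce, Peg10 and Mest lie on chromosome 6, and in F KSR2 all reads of that chromosome were 93.2 to 98.6% maternal, against 48.6 to 54.3% in the other groups. None was called between the mean of the KSR lines and TX 2i ESCs, the contrast in which Snrpn was called. In M KSR3, Peg3 was 76.4% ± 3.22 maternal and Zdbf2 65.9% ± 1.02, where Snrpn was 4.97% ± 1.60. In M KSR5, Mest was 11.1% ± 12.7 (3.80% over its first 2 libraries), and Peg3 50.6% ± 7.73. Between the male lines, 4 of the 11 had a higher ratio in M KSR3 (Zdbf2, Mest, Peg3 and Impact) and Dlk1 a lower one. Snrpn was not called. That contrast called 11.5% of all genes, and 82.1% of the called genes were higher in M KSR3. Reads of all autosomes were 55.1 to 55.5% maternal in M KSR3 and 52.5 to 52.8% in M KSR5. The part of gene dosage in these shares and ratios was not tested.

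The genes whose level ran most like Snrpn over the 18 libraries were Pcbp1, a poly(C) RNA-binding protein (Pearson r = 0.985), Ap3b2, a neuronal adaptor subunit (0.976), Snurf (0.976, which shares reads with Snrpn), Tmem28 (0.974) and Ccdc120 (0.973). Over the 15 pluripotent libraries alone the values were 0.943, 0.892, 0.887, 0.915 and 0.899. The libraries share the step from MEFs to pluripotent cells, so these are descriptions. By maternal share over the 6 groups, none of 6925 genes with at least 20 allelic reads in every library came near Snrpn. Genes with fewer allelic reads were not compared. The closest was Tmc7, also on chromosome 7, with a mean absolute difference of 14.3 points, followed by Impact (15.5), Rpl36-ps3 (15.6), Rps10 (15.7) and AC239880.1 (16.1), the last 3 of which had about the same low share in every group.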

How the data were processed

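Strand-specific polyA libraries from 18 samples were trimmed with Trim Galore 0.6.1, aligned to GRCm38 with HISAT2 2.1.0 and split by allele against the BL6 and CAST genomes by the authors, who quantified genes in SeqMonk. The deposited values are log2 RPM (reads scaled to library size), for all reads and for each allele, with a gene of 0 reads held at the value of 0.9 read. The labels and the methods of the study differ on read length and pairing. Reads were recovered from the step of 1 read in each library, and at least 99.97% of the values fell within 0.05 of a whole read. They served for allelic ratios, shares and Wilson 95% intervals (counting error only), with 3 reads as the limit for a count of 0. The study's own count test was not run, since the table holds log2 values.

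Levels were tested with limma 3.58.1 (R 4.3.3, trend) on the deposited log2 values of genes above 0 in at least 3 libraries. Allelic ratios, log2((maternal + 0.5)/(paternal + 0.5)), were tested in genes with a mean of at least 20 allelic reads. A model of 6 group means over 18 libraries was fitted, and 12 KSR libraries for female against male. Calls had a Benjamini-Hochberg adjusted p under 0.05 over all genes tested. Shares are given for libraries with at least 5 allelic reads. All tests are two-sided. The scripts were tested on simulated data. Alternatives were RPM plus 1, no filter, limma-voom on recovered reads, median centring, other allelic read minima, deposited per-allele values, a replicate block, the line as a random effect (female against male) and leaving out each library. Named genes were the 6 members, 2 to 4 genes of each fixed list, and the 5 genes most like Snrpn by level and by share. Of the fixed lists, 6 paternal non-coding transcripts, Nsmce3, Washc1 and Map2 matched no row of the table. Members and lists were chosen with earlier results of these data known. The 7 neuronal markers matched summed to 36.7 to 55.4 RPM in MEFs and 212 to 393 RPM elsewhere, mostly Stmn2. No library pair held identical values. Results for some listed genes are not reported here.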

Additional observations from a re-analysis of the deposited data

Results flagged for a closer look

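Snrpn in M KSR5 replicate 3 was 22.1% maternal (69 of 312 allelic reads), far from the other 5 male libraries, of which the highest was at 6.67%. Of the 22 groups of libraries examined in this way, chance alone would single out about 1 in 20.

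The log2 allelic ratio of Snrpn differed by 2.50 between female and male KSR-iPSCs (limma adjusted p = 0.0129) and by 1.75 between F KSR2 and F KSR4 (adjusted p = 0.0129), the second of which was lost without F KSR2 replicate 3 or F KSR4 replicate 3. The Snrpn level in M KSR3 minus M KSR5 was −1.06 on the log2 scale (adjusted p = 0.0175), which was lost without any 1 of the M KSR3 libraries, M KSR5 replicate 2 or M KSR5 replicate 3.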

How the results depend on the processing

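Values of the members called in the main fit were followed through the alternatives, and uncalled values only where an alternative called them. Over these, 453 kept their call, 25 lost it, 9 gained it and none turned its direction. Changes of direction among values that stayed uncalled were not counted. Against MEFs, 21 level calls of the members became 18 to 23 when 1 library was left out, and 10 allelic calls became 10 to 11. With a minimum mean of 50 allelic reads only 5 of those were left, since fewer genes were tested. The level count of KSR lines against TX 2i ESCs was 1, became 0 without the filter on low values and ran from 0 to 2 without 1 library (0 without TX 2i ESC replicate 1 or 3, 2 without M KSR5 replicate 3). The other level counts without 1 library were 0 to 0 (F KSR2 against F KSR4), 0 to 1 (M KSR3 against M KSR5, main 1) and 0 to 1 (female against male, main 0). The allelic counts were 1 to 1 (KSR lines against TX 2i ESCs), 3 to 4 (each line against TX 2i ESCs), 0 to 1 (F KSR2 against F KSR4, main 1), 0 to 0 (M KSR3 against M KSR5) and 1 to 1 (female against male). Biallelic pairs were 24 to 25, and 15 with at least 20 allelic reads per library, where 19 pairs had a share.

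Replicate numbers were not taken to pair the samples, since the labels name no shared source and not every pair correlated. Deviations from the group means correlated at a median of 0.0393 between same-numbered libraries (13 of 45 pairs over 0.1) and −0.0104 between others (12 of 90). With the replicate block the level count of KSR lines against TX 2i ESCs was 2 instead of 1, and no other count moved by over 1.5 times. Depth limits Magel2 (11 allelic reads in all), Mkrn3 in MEFs (7) and single-library shares of Ndn.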
